A study of Mus musculus with 12 samples.

Results

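The genes described here are 10 rows of a liver expression table of 23284 genes: Csad, Cdo1, Slc6a6, Cth, Cbs, Mat1a, Gnmt, Bhmt, Ahcy and Gamt, which carry sulfur from methionine to cysteine and taurine or pass methyl groups along the way. They were chosen by the FPKM of Csad, which was lower on Western diet in these same livers, so every diet difference of these 10 genes is given below as a description, with no test. Differences between genotypes were not used to name them and were tested. The difference between the diet effects of the genotypes was tested too, except for Csad. All 10 genes passed the level filter and were among 11546 genes tested.

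The livers came from 12 mice of 4 groups, each fed its diet for 22 weeks, with 1 RNA library per liver. All mice carried the deletions Apoa1-/- and Apoe-/- and are called DKO. Mice called DKO/hA1 carried, in addition, a transgene of human APOA1, the main protein of high density lipoprotein. There were 3 DKO/hA1 mice on Western diet, a high-fat diet, 3 DKO mice on Western diet, 2 DKO/hA1 mice on chow and 4 DKO mice on chow, the standard laboratory diet. The promoter of the transgene, the sex of the mice and the hour of collection are not given in the sources used here, and there was no group with intact Apoa1 and Apoe. The labels give each liver a sample number and a code, and some codes share a number. DKO/hA1 and DKO Western diet replicates 1 share one, and both DKO/hA1 chow livers share another with DKO chow replicate 3. What this number marks is not given in the sources used here, so livers that share it may not be independent, and p-values measure the spread between these samples. The number was lower in every Western diet liver than in any chow liver, so whatever it marks cannot be told apart from the diet.

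As background, the liver activates dietary methionine to S-adenosylmethionine, the donor of most methyl groups, and hydrolyses what is left to homocysteine. Homocysteine is either methylated back to methionine or condensed with serine on the way to cysteine, which the liver turns into glutathione, sulfate or taurine. In mice most bile acids are conjugated to taurine, so liver taurine synthesis is tied to bile acid secretion.

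The table holds FPKM, a fragment number divided by transcript length and by the mapped fragments of the library, so that levels of different genes are compared per length. FPKM totals were 379689 to 578927 per library, and steps among low values placed relative depth at 0.514 to 1.31 of that of DKO chow replicate 1. Since fragment numbers are not in the table, no counting interval can be given. Apoa1 measured 206, 239.8 and 122 FPKM in DKO/hA1 Western diet livers, against 40.2, 60.6 and 77.4 in DKO Western diet livers. It measured 217 and 236 FPKM in DKO/hA1 chow livers, against 30.4 to 47.0 in DKO chow livers, so the transgene labels were separated on both diets. Apoe was above 0 in every library (12.9 to 89.8 FPKM), and which part of either gene was deleted is not given in the sources used here, so these values do not check the deletions. Hepatocyte markers summed to 17860 to 30264 FPKM, and 8 markers of kidney, pancreas and muscle to at most 1.71 FPKM. On Western diet, 12 macrophage and Kupffer cell markers summed to 1501 to 2292 FPKM with the transgene and 1012 to 1342 without it, against 243 to 606 and 321 to 743 in the chow livers of the same genotypes. DKO/hA1 Western diet replicate 3 and DKO Western diet replicate 2 stood apart: 9 neutrophil markers summed to 4444 and 4164 FPKM there, against 28.0 to 1353 in the other libraries, and their top 10 genes took 26.9% and 27.9% of all FPKM. These sums rest largely on Lcn2, which reached 3574 FPKM, where no other marker of the 9 exceeded 455.2 FPKM. The mean log2 level of the 9 markers was 5.72 in both livers, against 1.17 to 3.91 in the other libraries. Markers of the zones of the liver lobule differed too. Those of periportal hepatocytes summed to 1163 to 1642 FPKM in DKO/hA1 Western diet livers, against 1790 to 2202 in DKO/hA1 chow livers, and to 1387 to 1539 in DKO Western diet livers, against 1740.1 to 1944 in DKO chow livers. Those of pericentral hepatocytes summed to 2653 to 2864 FPKM in DKO/hA1 chow livers, against 3909 to 6567 in DKO chow livers, without overlap. They summed to 2404 to 7205 in DKO/hA1 Western diet livers, against 5111 to 5846 in DKO Western diet livers. The part of the macrophages and of the zones in the results below was not tested. In a whole liver, fewer hepatocytes and less RNA per hepatocyte cannot be told apart.

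Averaged over the 12 livers, Gnmt was the most abundant of the set at 1381 FPKM, 35th of the genes tested. Mat1a (1126 FPKM) and Bhmt (1095 FPKM) followed, and the ranges of these 3 genes over the livers overlapped widely. Cdo1 (619.7 FPKM) and Ahcy (489 FPKM) also overlapped each other. Below them came Cbs (220.3 FPKM), Cth (179 FPKM), Gamt (122 FPKM) and Csad (76.8 FPKM), and last Slc6a6 at 18.3 FPKM, 2668th of the genes tested. Csad varied most of the 10, with its highest liver 11.7 times its lowest. The other 9 genes spanned 1.66 times (Cdo1) to 4.19 times (Bhmt).

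**Figure D1:**
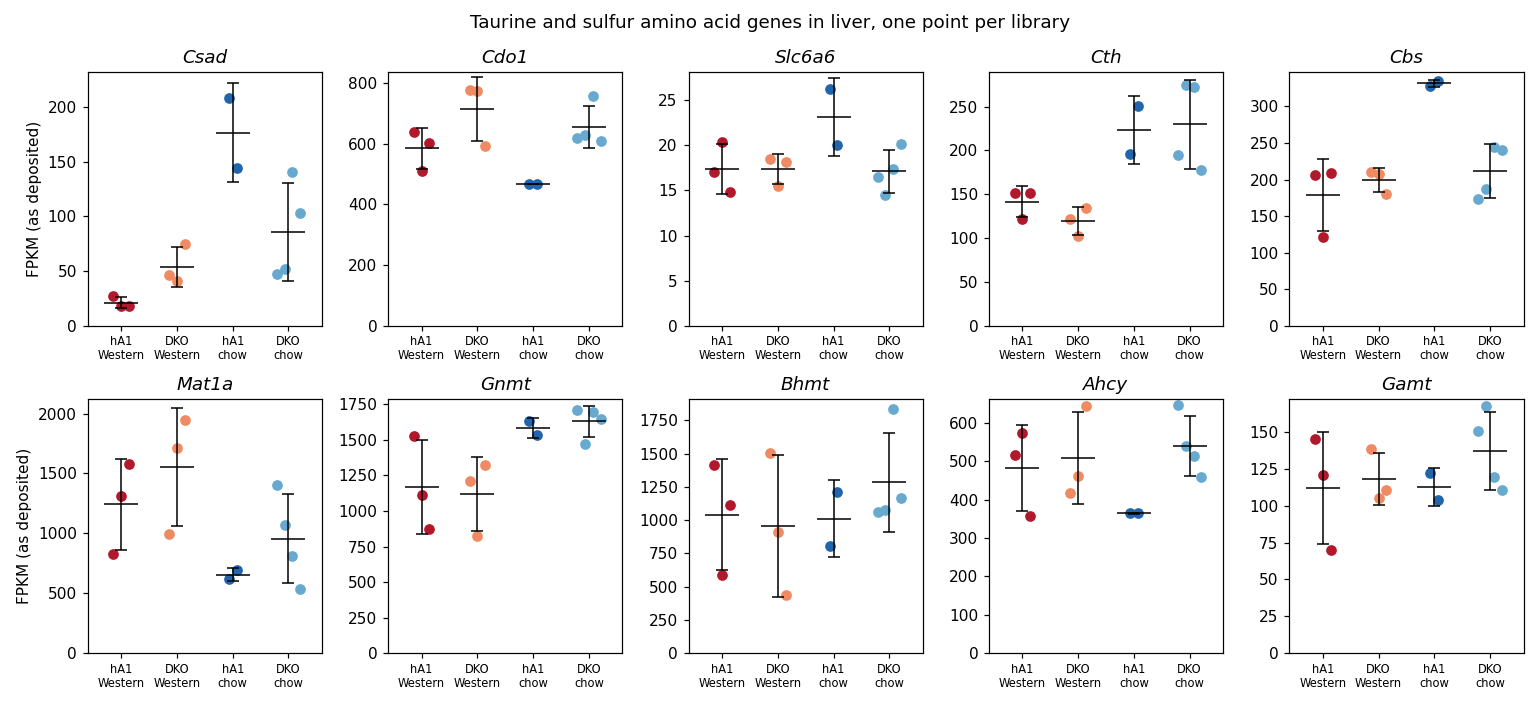
FPKM of each gene (vertical axis, from 0) in the 4 groups, with 1 point per liver, a bar at the group mean and whiskers of 1 SD. The Csad panel separates DKO/hA1 Western diet (17.9 to 27.4 FPKM) from DKO/hA1 chow (144 and 209 FPKM), while the Slc6a6 and Gamt panels overlap in most groups.

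Csad encodes cysteine sulfinic acid decarboxylase, which makes hypotaurine, the direct precursor of taurine. The gene lies at chr15:102176999-102204724 on the minus strand (GENCODE M21, GRCm38), and its exons overlap those of Zfp740 on the opposite strand. Whether the reads kept their strand is not given in the sources used here, but Zfp740 averaged 6.55 to 8.53 FPKM per group. None of the 36-base windows of its transcript was shared with another gene. RefSeq places 2 transcription starts in this gene, and their promoters, 250 bases before to 50 bases after the start, are shown because the set was chosen on Csad. Capitals mark the CCAAT box, the sequence CACGTG (the E-box of the clock proteins), the D-box TTATGNAA and the ROR element AGGTCA, searched on both strands. The first start lies in chr15:102205003-102205302 and the second in chr15:102188994-102189293 (GRCm38.p6, minus strand), the first outside the GENCODE span of the gene.
Csad, first start: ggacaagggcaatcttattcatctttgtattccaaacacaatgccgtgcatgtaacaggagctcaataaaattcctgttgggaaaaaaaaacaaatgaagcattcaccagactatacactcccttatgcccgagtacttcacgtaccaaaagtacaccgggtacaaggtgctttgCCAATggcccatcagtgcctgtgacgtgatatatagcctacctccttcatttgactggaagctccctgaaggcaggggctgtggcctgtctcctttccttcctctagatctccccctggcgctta
Csad, second start: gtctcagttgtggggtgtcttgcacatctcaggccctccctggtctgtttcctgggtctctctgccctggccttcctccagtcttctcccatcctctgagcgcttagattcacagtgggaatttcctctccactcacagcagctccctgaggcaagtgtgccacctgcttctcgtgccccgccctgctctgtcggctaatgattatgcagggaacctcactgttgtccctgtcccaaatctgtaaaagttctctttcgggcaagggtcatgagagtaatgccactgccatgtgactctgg
The first promoter held CCAAT at -75, counted from the start to the first base of the match, a motif in 37.4% of the 32817 mouse promoters of this length, and the second held none of the 4 motifs. CACGTG was in 7.15% of all promoters, AGGTCA in 16.3% and TTATGNAA in 3.39%. These matches describe letters in a window.

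Csad was lowest where diet and transgene were combined. It measured 27.4, 17.9 and 18.4 FPKM in DKO/hA1 Western diet livers, against 209 and 144 FPKM in DKO/hA1 chow livers. These groups did not overlap, and the difference was -3.01 ± 0.44 (log2 fold change of scaled FPKM + 1, SE), a ratio of 0.124. In DKO livers without the transgene it measured 46.3, 40.6 and 74.9 FPKM on Western diet, against 47.0, 51.9, 141 and 103 FPKM on chow. These groups overlapped, since chow replicates 1 and 2 lay within the Western diet range, and the difference was -0.63 ± 0.37, or -0.35 without DKO chow replicate 3. By group means, DKO/hA1 chow stood highest (176 ± 45.3 FPKM, SD, n = 2), then DKO chow (85.7 ± 44.6, n = 4), DKO Western diet (53.9 ± 18.4, n = 3) and DKO/hA1 Western diet (21.2 ± 5.32, n = 3). In that order, the only neighbours that overlapped were DKO chow and DKO Western diet, and DKO/hA1 chow cleared DKO chow narrowly, by 144 over 141 FPKM.

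The transgene went with more Csad on chow and less on Western diet, without overlap on either diet. On chow the DKO/hA1 livers exceeded the DKO livers by 1.13 ± 0.41 (log2), which did not pass the limma test over all genes (Benjamini-Hochberg adjusted p = 0.546). On Western diet the difference was -1.25 ± 0.39, which did not pass either (adjusted p = 0.761). DKO chow replicate 3 (141 FPKM) shares a code number with both DKO/hA1 chow livers. With a random block for that number the chow difference was 0.66. The diet difference with the transgene minus that without it was -2.38 ± 0.57, given without a test because it contains the contrast that chose the set. Averaged over diets, the opposite directions left -0.06 ± 0.28. Without both livers highest in neutrophil markers, Csad had a diet difference of -2.93 with the transgene and -0.46 without it, and a transgene difference of -1.33 on Western diet.

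**Figure D2:**
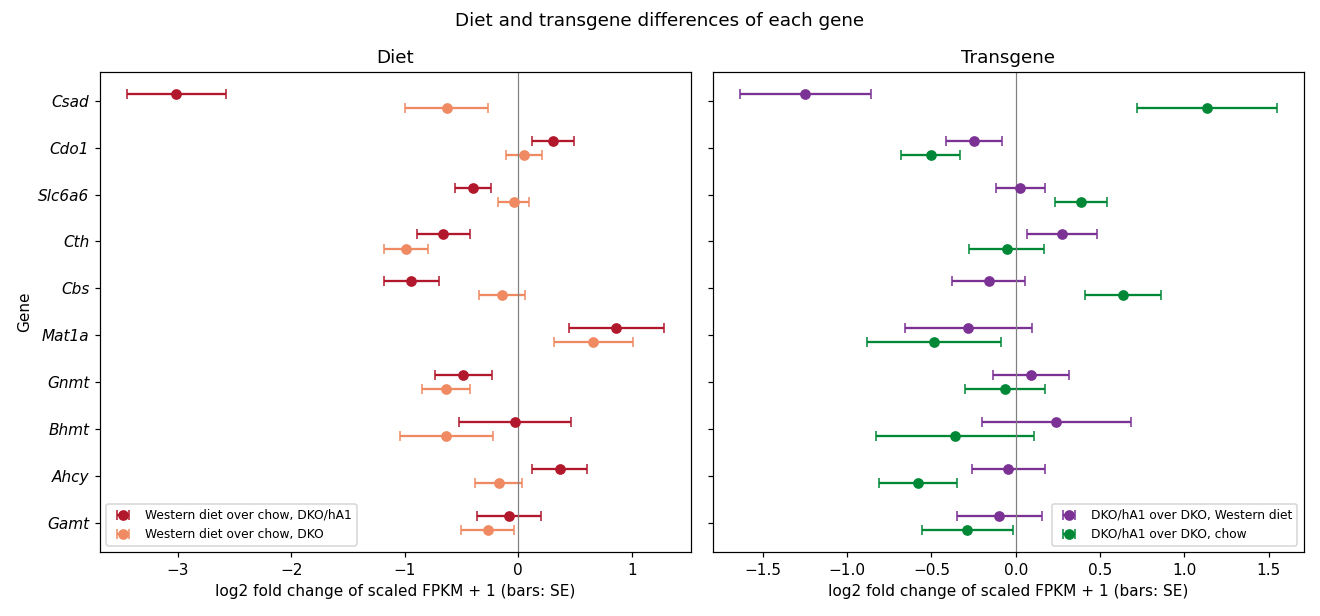
Log2 fold change of scaled FPKM + 1 for each gene (horizontal axis, bars of 1 SE). The left panel gives Western diet over chow in each genotype and the right panel DKO/hA1 over DKO on each diet, where Csad lies at -1.25 on Western diet and 1.13 on chow.

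Cdo1, cysteine dioxygenase, makes the substrate of Csad, and lies at chr18:46713193-46728395 on the minus strand (this and all gene positions below are GENCODE M21, GRCm38). Its levels ran opposite to those of Csad between the DKO/hA1 groups. DKO/hA1 Western diet livers had 638, 509 and 603 FPKM, against 467 and 466 FPKM in DKO/hA1 chow livers, so here the Western diet livers were the higher ones, by 0.30 ± 0.19 (log2). In DKO livers it was 775, 772 and 591 FPKM on Western diet, against 618, 629.5, 757 and 609 FPKM on chow, with overlap (0.05 ± 0.16). With the transgene Cdo1 was lower than without it on chow, where the groups did not overlap (-0.51 ± 0.18, adjusted p = 0.5 in limma), and averaged over diets (-0.38 ± 0.12, adjusted p = 0.429), and neither passed. The ratio of Cdo1 to Csad was 23.3 to 32.8 in DKO/hA1 Western diet livers, against 2.24 and 3.23 in DKO/hA1 chow livers. It was 7.89 to 19.01 in DKO Western diet livers, against 5.38 to 13.1 in DKO chow livers.

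Slc6a6 encodes the taurine transporter of the plasma membrane (chr6:91684053-91759066, plus strand). It measured 17.0, 20.4 and 14.9 FPKM in DKO/hA1 Western diet livers, against 26.2 and 20.04 FPKM in DKO/hA1 chow livers (-0.40 ± 0.16, log2). Without the transgene it measured 18.5, 15.5 and 18.2 FPKM on Western diet, against 16.5, 14.4, 17.4 and 20.2 FPKM on chow (-0.04 ± 0.14). Both pairs overlapped. On chow the transgene difference was 0.39 ± 0.15 (adjusted p = 0.592 in limma) and did not pass. The liver with the most Slc6a6, DKO/hA1 chow replicate 1, was also the one with the most Csad.

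Cbs and Cth catalyse the consecutive steps of transsulfuration, in which cystathionine beta-synthase joins homocysteine to serine and cystathionine gamma-lyase releases cysteine. Cth (chr3:157894248-157925077, minus strand) was lower on Western diet without overlap in both genotypes. It measured 151, 121 and 152 FPKM in DKO/hA1 Western diet livers, against 195 and 250.2 FPKM in DKO/hA1 chow livers (-0.66 ± 0.23, log2). DKO livers had 122, 103 and 135 FPKM on Western diet, against 195, 275, 272 and 178 FPKM on chow (-0.99 ± 0.19). The transgene differences were 0.27 ± 0.21 on Western diet and -0.05 ± 0.22 on chow, and neither passed.

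Cbs (chr17:31608894-31637238, minus strand) was lower on Western diet without overlap in DKO/hA1 livers, as Csad was, and overlapped in DKO livers. It measured 206, 121 and 209.6 FPKM in DKO/hA1 Western diet livers, against 328 and 335 FPKM in DKO/hA1 chow livers (-0.94 ± 0.24, log2). The DKO livers gave 211, 207 and 179.8 FPKM on Western diet, against 173, 188, 244 and 241 FPKM on chow (-0.14 ± 0.20). On chow the DKO/hA1 livers were above all DKO livers (0.64 ± 0.23, adjusted p = 0.514 in limma). On Western diet the transgene difference was -0.16 ± 0.21. The diet difference with the transgene minus that without it was -0.80 ± 0.31, which did not pass (adjusted p = 0.961 in limma). Its promoter is shown for comparison with those of Csad, with capitals as above (chr17:31637156-31637455, GRCm38.p6, minus strand).
Cbs: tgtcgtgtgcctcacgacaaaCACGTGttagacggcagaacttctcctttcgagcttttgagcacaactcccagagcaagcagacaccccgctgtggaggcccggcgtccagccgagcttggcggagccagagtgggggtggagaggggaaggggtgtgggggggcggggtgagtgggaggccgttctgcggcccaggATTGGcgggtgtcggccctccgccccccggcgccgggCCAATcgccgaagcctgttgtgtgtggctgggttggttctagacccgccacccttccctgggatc
It held CACGTG at -229 and CCAAT at -52 and -15. Of the 10 genes, 6 had a promoter in the RefSeq table, with 7 starts between them. CCAAT was in 5 of these 7 promoters, AGGTCA in 3 and CACGTG in that of Cbs alone.

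The methionine cycle genes differed from each other in direction. Mat1a, the liver form of methionine adenosyltransferase (chr14:41105035-41124412, plus strand), had the higher group means on Western diet. It measured 829.7, 1316 and 1579.5 FPKM in DKO/hA1 Western diet livers, against 615 and 696 FPKM in DKO/hA1 chow livers, without overlap (0.86 ± 0.42, log2). Its levels in DKO livers were 998, 1715 and 1944 FPKM on Western diet, against 1405, 1069, 813 and 534 FPKM on chow, with overlap (0.66 ± 0.35). Its paralog Mat2a, the form of dividing and non-hepatic cells, stayed at 20.7 to 35.1 FPKM over all 12 livers.

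Gnmt, glycine N-methyltransferase, which uses up S-adenosylmethionine by methylating glycine (chr17:46725664-46729168, minus strand), was lower on Western diet without overlap in both genotypes. It measured 1528, 1112 and 873 FPKM in DKO/hA1 Western diet livers, against 1636 and 1535 FPKM in DKO/hA1 chow livers (-0.49 ± 0.25, log2). In the DKO genotype it measured 1211, 826 and 1323 FPKM on Western diet, against 1711, 1468, 1696 and 1646 FPKM on chow (-0.64 ± 0.21). In DKO/hA1 livers the gap was 1528 against 1535 FPKM. The 6 Western diet livers spanned 826 to 1528 FPKM, against 1468 to 1711 FPKM in the 6 chow livers.

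Bhmt, betaine-homocysteine methyltransferase, which returns homocysteine to methionine (chr13:93616675-93637961, minus strand), overlapped in every comparison. It measured 1417, 590.1 and 1114 FPKM in DKO/hA1 Western diet livers, against 805 and 1216 FPKM in DKO/hA1 chow livers (-0.03 ± 0.49, log2). Without the transgene it measured 1506, 914 and 439 FPKM on Western diet, against 1059, 1074, 1839.8 and 1165 FPKM on chow (-0.63 ± 0.41). This last difference rests on single livers: it was -0.16 without DKO Western diet replicate 3 and -1.04 without replicate 1 of that group. Of its 36-base windows 67.4% also occur elsewhere, mostly in Gm5096, so its level is uncertain. Bhmt2, a paralog of which 9.94% of windows are shared, stayed at 79.3 to 112 FPKM.

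Ahcy, which splits S-adenosylhomocysteine into adenosine and homocysteine (chr2:155059310-155074497, minus strand), shares 78.8% of its windows with other genes, mostly Gm4737, and is likewise uncertain. It measured 517, 573 and 358 FPKM in DKO/hA1 Western diet livers, against 365 and 364 FPKM in DKO/hA1 chow livers (0.36 ± 0.24, log2). DKO livers had 417, 463 and 645 FPKM on Western diet, against 648, 539.5, 515 and 459.8 FPKM on chow (-0.17 ± 0.20). On chow the DKO/hA1 livers were below all DKO livers (-0.58 ± 0.23, adjusted p = 0.592 in limma), which did not pass. The related Ahcyl1 and Ahcyl2 stayed at 24.0 to 30.0 FPKM and 3.21 to 6.98 FPKM.

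Gamt, guanidinoacetate methyltransferase, makes creatine and is a large user of liver methyl groups (chr10:80258151-80261012, minus strand). It measured 145, 121 and 70.1 FPKM in DKO/hA1 Western diet livers, against 122 and 104 FPKM in DKO/hA1 chow livers (-0.08 ± 0.28, log2). The DKO livers gave 138, 105 and 111 FPKM on Western diet, against 150.3, 167, 119 and 110.4 FPKM on chow (-0.27 ± 0.24). The lowest liver was DKO/hA1 Western diet replicate 3. Gatm, the first step of creatine synthesis, which in mice is mainly a kidney and pancreas enzyme, was at 3.02 to 8.40 FPKM.

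As a set, the Western diet livers with the transgene did not overlap their chow livers in 6 of the 10 genes: Csad, Cth, Cbs and Gnmt were lower, and Cdo1 and Mat1a higher. Of all genes tested, 30.3% did not overlap in this comparison. In DKO livers 2 of 10 did not overlap, Cth and Gnmt, both lower, where 13.6% of all genes did not. Both shares rest on the contrast that chose the set. Single livers moved more of these differences by over 1.5 times. For diet with the transgene, Slc6a6 was -0.22 without DKO/hA1 chow replicate 1, and Gnmt was -0.30 without DKO/hA1 Western diet replicate 3. Ahcy was 0.56 without that same liver and 0.23 without replicate 2 of its group. In DKO livers, Mat1a was 0.41 without DKO chow replicate 4. For the transgene on chow, Slc6a6 was 0.21 without DKO/hA1 chow replicate 1. For the transgene on chow, 4 of 10 did not overlap, Csad and Cbs higher and Cdo1 and Ahcy lower, against 21.6% of all genes. On Western diet Csad alone did not overlap, lower with the transgene, against 9.54% of all genes.

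None of the 10 genes passed an adjusted p of 0.05 for the transgene on chow, where limma called 9 genes, 0.0779% of those tested. At an unadjusted p under 0.05 there were 5 of the 10, against 858 of all genes (7.43%). For the transgene on Western diet limma called 0 genes (0%), with 674 at an unadjusted p under 0.05 (5.84%), Csad among them. Even Apoa1, which separated the transgene labels on this diet (1.68 ± 0.27, log2), was not called there (adjusted p = 0.366). The 0 calls therefore do not show that no gene differed. Averaged over diets limma called 13 genes (0.113%), none of them in the set. For the difference between the diet effects it called 2 genes (0.0173%), a comparison that contains the contrast behind the set. The diet comparisons called 152 genes with the transgene (1.32%), 13 without it (0.113%) and 456 averaged over genotypes (3.95%). The diet comparisons share livers with the transgene comparisons and are not independent of them. The median of the 10 genes was -0.24 for diet with the transgene and -0.22 without it (log2), against -0.01 and -0.00 over all genes tested. For the transgene it was -0.07 on Western diet and -0.18 on chow, against -0.01 and -0.00 over all genes.

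Within the 4 DKO chow livers, replicates 3 and 4 had more Csad (141 and 103 FPKM) than replicates 1 and 2 (47.0 and 51.9 FPKM). The same livers split by their clock genes. A clock index, the mean log2 level of Arntl, Npas2, Clock and Cry1 minus that of Dbp, Tef, Per3, Nr1d1, Nr1d2 and Per2, was 0.40 and 0.00 in replicates 3 and 4 and -3.44 and -3.48 in replicates 1 and 2. These gene groups peak at opposite times of the day in mouse liver. The index was -3.10, -3.10 and -1.49 in DKO/hA1 Western diet livers, against -0.59 and 0.21 in DKO/hA1 chow livers, without overlap. It was -2.09, -2.46 and -1.19 in DKO Western diet livers, inside the range of DKO chow livers.

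Pooled within groups, Csad was higher by 0.29 ± 0.08 (log2) for each unit of the index, positive when any library was left out (0.23 to 0.34). Csad rose along the index in DKO Western diet livers (40.6, 46.3 and 74.9 FPKM at -2.46, -2.09 and -1.19), as in the DKO chow split. It did not in DKO/hA1 livers. On chow these had 209 FPKM at -0.59 and 144 FPKM at 0.21. On Western diet they had 27.4 and 17.9 FPKM at -3.10 and 18.4 FPKM at -1.49. The pooled slope was examined after the split of the DKO chow livers had been seen, and it did not pass over all genes (limma, adjusted p = 0.294). Gamt had a slope of -0.18 ± 0.06 (adjusted p = 0.418), Cbs of 0.10 ± 0.06 and Mat1a of -0.14 ± 0.11. None of the 10 genes passed, where 22 of all genes tested did (0.191%). With the index in the model, the Csad diet difference with the transgene was -2.33, its transgene difference 0.72 on chow and -1.06 on Western diet, and the difference of the diet effects -1.78. In DKO/hA1 livers the index did not overlap between diets, so its part and that of the diet cannot be told apart there.

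**Figure D3:**
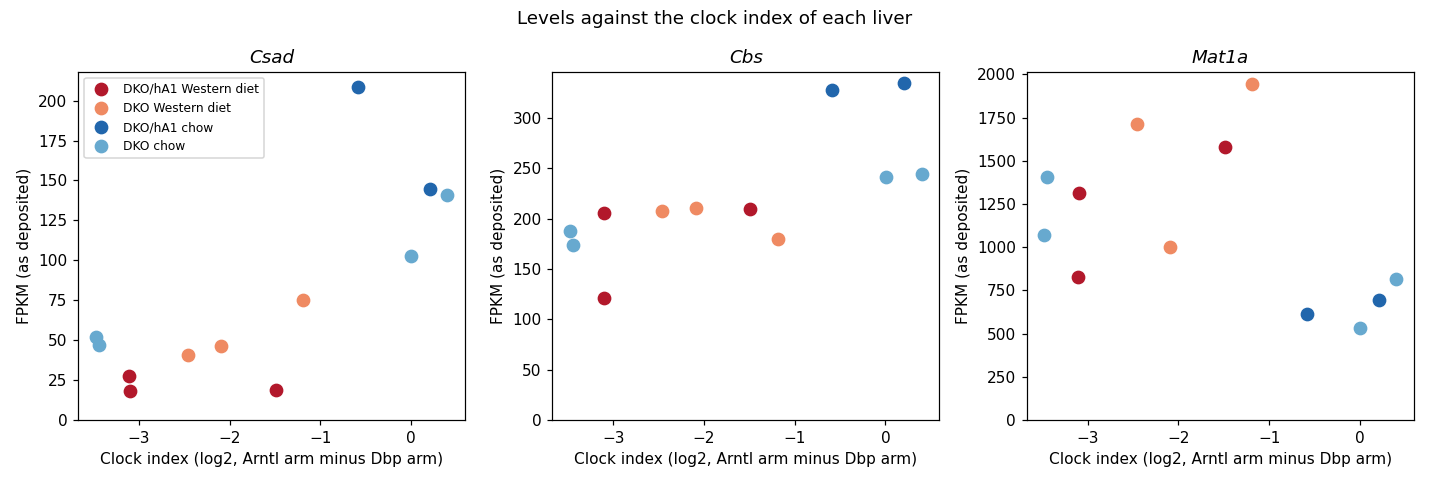
FPKM of Csad, Cbs and Mat1a (vertical axes, from 0) against the clock index of the same liver (horizontal axis, log2), with 1 point per liver coloured by group. The 4 DKO chow livers fall at both ends of the index, with Csad at 47.0 and 51.9 FPKM at the low end and 141 and 103 FPKM at the high end.

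The acute phase response, in which liver makes serum amyloid A, haptoglobin and other plasma proteins during inflammation, differed between livers of the same group too. Its index, the mean log2 level of 11 such genes, was 8.54, 9.08 and 11.63 in DKO/hA1 Western diet livers, against 7.72 and 8.64 in DKO/hA1 chow livers. It was 9.78, 11.78 and 11.06 in DKO Western diet livers, against 7.53 to 8.33 in DKO chow livers. Within groups, Mat1a was higher by 0.36 ± 0.11 (log2) per unit of the index, while Gnmt (-0.20 ± 0.07), Gamt (-0.21 ± 0.09) and Slc6a6 (-0.12 ± 0.05) had negative slopes. Their adjusted p-values in limma were 0.12, 0.144, 0.219 and 0.268, so none passed, where 383 genes did (3.32%). That number was 23 without DKO/hA1 Western diet replicate 3, 93 without replicate 1 of that group, 146 without DKO Western diet replicate 1 and 209 without its replicate 2. Without DKO/hA1 Western diet replicate 3 the slope of Gamt was -0.05 and that of Mat1a 0.60. With the index in the model, the diet difference in DKO livers was -0.01 for Csad, -0.06 for Gnmt and -0.40 for Mat1a, the last with its sign turned. In DKO livers the index did not overlap between diets, so its part and that of the diet cannot be told apart there.

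**Figure D4:**
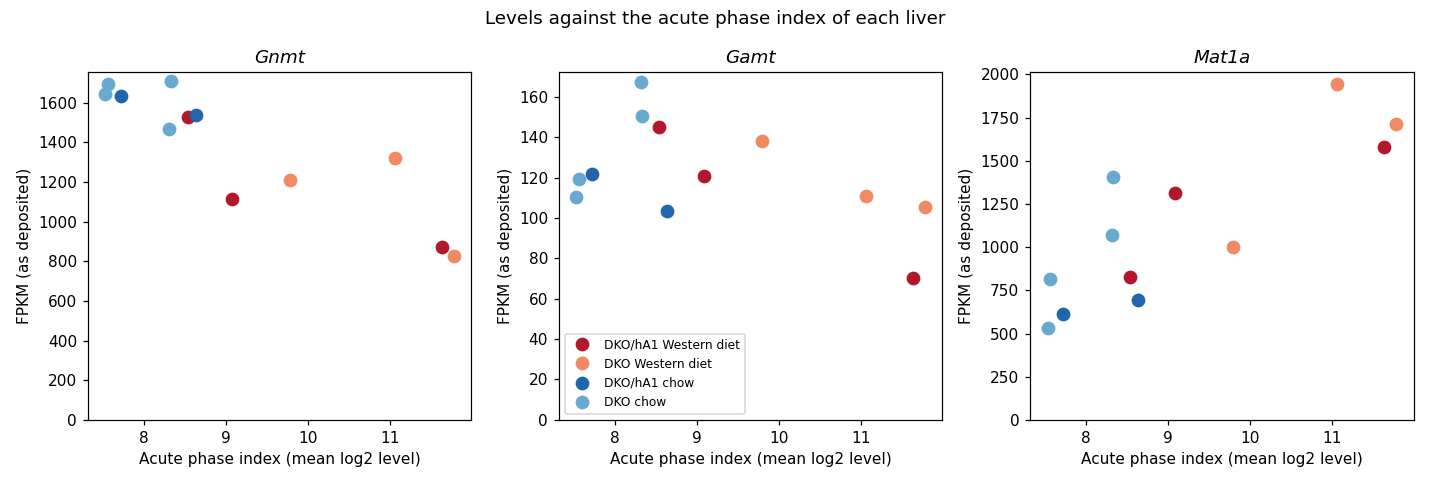
FPKM of Gnmt, Gamt and Mat1a (vertical axes, from 0) against the acute phase index of the same liver (horizontal axis, mean log2 level of 11 genes), with 1 point per liver coloured by group. The livers at 11.63 and 11.78 have 873 and 826 FPKM of Gnmt, its lowest values, and 1579.5 and 1715 FPKM of Mat1a.

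Around these 10 genes, 76 further genes of 8 lists were examined, covering taurine and cysteine, the methionine cycle, methionine salvage and polyamines, choline, betaine and glycine, creatine, glutathione synthesis, sulfide oxidation and bile acid feedback. Of these, 69 were tested. For diet with the transgene 1 of 69 was called, Psph, and it fell, where 1.32% of all genes were called. Averaged over genotypes 1 was called, Selenbp2, and it fell, where 3.95% of all genes were called. Both counts are near or below the share of all genes, so neither is a result about the lists. None was called by limma in the other comparisons. At an unadjusted p under 0.05 there were, of the 69, 8 for diet in DKO livers (11.8% of all genes), 13 for diet with the transgene (13.5%) and 16 averaged over genotypes (19.6%). There were 5 for the transgene on Western diet (5.84% of all genes), 5 on chow (7.43%), 9 averaged over diets (8.03%) and 3 for the difference of the diet effects (4.88%).

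Psph, phosphoserine phosphatase, completes the synthesis of serine, the partner of homocysteine in the Cbs reaction. It measured 2.73, 2.23 and 2.29 FPKM in DKO/hA1 Western diet livers, against 4.70 and 5.20 FPKM in DKO/hA1 chow livers, and fell by 0.81 ± 0.16 on the log2 scale (limma adjusted p = 0.0335). Its levels in DKO livers were 4.09, 3.34 and 4.41 FPKM on Western diet, against 2.06, 2.63, 2.70 and 3.27 FPKM on chow, so the DKO livers were the other way round (0.38 ± 0.13, adjusted p = 0.298). The difference of the diet effects was -1.19 ± 0.20 (adjusted p = 0.259), not called. The diet call with the transgene was lost without DKO/hA1 Western diet replicate 2 (adjusted p = 0.0921) or 3 (0.0655), DKO/hA1 chow replicate 1 (0.0918) or 2 (0.437), or DKO chow replicate 3 (0.0608), and with a random block for the code number (0.0911). Exons of Psph overlap Cct6a on the opposite strand, which shares 24.6% of its 36-base windows and averaged 59.0 to 66.4 FPKM per group, so this low level of Psph is uncertain.

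Selenbp2, a selenium-binding protein related to the methanethiol oxidase Selenbp1, measured 306, 162 and 74.0 FPKM in DKO/hA1 Western diet livers, against 343 and 485 FPKM in DKO/hA1 chow livers. In the DKO genotype it measured 368, 106 and 79.6 FPKM on Western diet, against 615, 465, 969.5 and 719 FPKM on chow. Averaged over genotypes it fell by 1.83 ± 0.43 on the log2 scale (limma adjusted p = 0.0411). The call held when DKO/hA1 Western diet replicate 1 (adjusted p = 0.0221) or DKO Western diet replicate 1 (0.0134) was left out and was lost without any of the other 10 libraries (0.0554 to 0.201), and with a random block for the code number (0.0896). With the acute phase index in the model the difference was -0.41 (adjusted p = 0.718). Selenbp2 shares 62.7% of its windows with Selenbp1, so the division of reads between them is uncertain.

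Other genes of taurine supply spanned narrower ranges than Csad. Ado, the alternative thiol dioxygenase that makes hypotaurine from cysteamine, was at 2.55 to 3.70 FPKM, and Gadl1, a relative of Csad, was listed at 0 in every library. The ratio of Csad to Ado was 5.24 to 9.10 in DKO/hA1 Western diet livers, against 39.2 and 70.9 in DKO/hA1 chow livers. It was 12.8 to 20.3 in DKO Western diet livers, against 18.1 to 41.9 in DKO chow livers. Baat, which joins taurine to bile acids, was at 83.7 to 145 FPKM, and Slc6a13, a carrier of GABA and taurine on hepatocytes, at 56.3 to 96.8 FPKM. Neither was called in any comparison.

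Gclc, the catalytic subunit of the enzyme that starts glutathione synthesis from cysteine, split the DKO chow livers as Csad did. Unlike Csad, it overlapped between the genotypes on both diets. It measured 69.4, 41.1 and 38.2 FPKM in DKO/hA1 Western diet livers, against 141 and 131 FPKM in DKO/hA1 chow livers (-1.50 ± 0.53, limma adjusted p = 0.222). Without the transgene it measured 95.03, 34.4 and 54.5 FPKM on Western diet, against 37.6, 52.5, 131 and 110.3 FPKM on chow, and the high chow livers were replicates 3 and 4. Its regulatory subunit Gclm stayed at 56.5 to 86.8 FPKM.

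On the acute phase index 6 of the 69 genes passed, where 383 of all genes tested did (3.32%). Slc3a1, the heavy chain of the cystine transporter (0.79 ± 0.10), and Chac1, which degrades glutathione (0.52 ± 0.11), rose with it. Inmt, a methyltransferase of small amines (-1.72 ± 0.21), Cyp8b1, which sets the share of cholic acid (-0.92 ± 0.14), Sardh, which oxidises the sarcosine made by Gnmt (-0.34 ± 0.07), and Mpst, which transfers sulfur from mercaptopyruvate (-0.20 ± 0.04), fell with it. Slc3a1 shares 25.3% of its windows with Prepl, and Sardh has an antisense partner, so both are uncertain. None of these 6 passed without DKO/hA1 Western diet replicate 3 (adjusted p 0.23 to 0.467), where the slopes were 0.63 for Slc3a1, 0.61 for Chac1, -1.39 for Inmt, -0.82 for Cyp8b1, -0.28 for Sardh and -0.17 for Mpst.

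**Figure D5:**
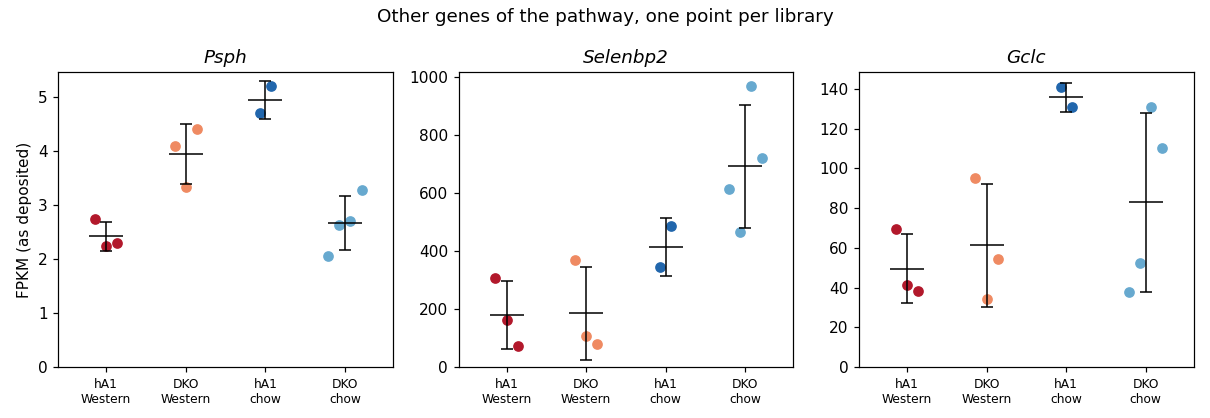
FPKM of Psph, Selenbp2 and Gclc (vertical axes, from 0) in the 4 groups, with 1 point per liver, a bar at the group mean and whiskers of 1 SD. Psph lies at 2.23 to 2.73 FPKM in DKO/hA1 Western diet livers and at 4.70 and 5.20 FPKM in DKO/hA1 chow livers, and Gclc splits the DKO chow livers.

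Over the 12 livers, the genes whose levels were most like those of Csad were 1600016N20Rik (Pearson r of 0.952 on log2 scaled FPKM + 1), Ikbkg (0.929), Frat1 (0.913), Hacl1 (0.909) and Mtap7 (0.905). The points share the 4 groups and the library depths, so these are descriptions. Hacl1, a peroxisomal enzyme that shortens hydroxylated fatty acids, measured 49.5, 43.7 and 42.3 FPKM in DKO/hA1 Western diet livers, against 109 and 106 FPKM in DKO/hA1 chow livers. Ikbkg, a regulatory subunit of the kinase that activates NF-kappaB, measured 9.58, 8.38 and 9.36 FPKM in DKO/hA1 Western diet livers, against 16.4 and 18.3 FPKM in DKO/hA1 chow livers. For Gnmt the most alike were Ces2a (0.964), Gsta4, Gstm6, Cyp3a11 and Trap1 (0.94), which include drug-metabolising enzymes. For Gamt they were Gm10768 (0.946), Zfp395, Tprkb, Slc2a2 and Nudt7 (0.914). For Slc6a6 they were Alkbh6 (0.882), Setd1a, Fam193a, Trp53 and Snhg6 (0.86).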

How the data were processed

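Liver RNA of 12 mice was extracted with NucleoSpin columns, RNA with an integrity number under 7 was discarded, and libraries were made with the Illumina RNA-Seq Sample Prep kit, per the labels' protocols. Reads were processed with TopHat 1.3.2, Bowtie 0.12.8, SAMtools 0.1.19 and Cuffdiff against mm10, per the submitters' processing notes. The authors deposited 1 table of FPKM, although its name says counts; its annotation is not given in the sources used here.

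From these values, each library was divided by a scale factor, the plain mean of its log ratios to the average profile after trimming 0.3 on ratios and 0.05 on levels, 1 was added, and log2 values were fitted in limma 3.58.1 (R 4.3.3) with 4 group means over all 12 libraries and a trended, robust variance. Fold changes are on the log2(FPKM + 1) scale and understate changes of low genes. Genes needed 1 FPKM in 2 libraries. Left out were 783 small RNA genes and 22 genes at 0 in a whole group that reached 1 FPKM elsewhere, since an exact 0 can be a failed estimate. P-values were two-sided, adjusted by the Benjamini-Hochberg method over 11546 genes, and called below 0.05. The fit was checked on simulated data. Within-group correlations of log2 FPKM were 0.947 to 0.981.

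The 10 genes, the 8 lists and the tests were chosen with earlier results of these data known. Named are the 10 genes, Apoa1 and Apoe, list genes called in a comparison, paralogs, and the 5 genes most like Csad, Gamt, Gnmt and Slc6a6. Other list genes named (Gclc, Gclm, Ado, Baat, Slc6a13, Gatm and those with an acute phase slope) and Zfp740 were chosen after their values were seen. The clock and acute phase slopes and the code number block were added after seeing the data. Alternatives were another added value, no level filter, other scalings, replicate number or code number as a block, an index as covariate, the compared groups alone, and each library left out. Coordinates are from GENCODE M21 (GRCm38, the mm10 build), and promoters from RefSeq (GRCm38.p6). Shared windows of 36 bases were counted against all GENCODE transcripts. Figures were drawn with matplotlib 3.10.9.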

Additional observations from a re-analysis of the deposited data

Results flagged for a closer look

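In DKO chow livers, Cdo1 of replicate 3 lay far above the others: its gap to the nearest liver was 0.864 of the group's range (757 FPKM, against 609 to 629.5 FPKM in the other 3). Bhmt of the same liver was also far above the others, by a gap of 0.864 of the range (1839.8 FPKM, against 1059 to 1165 FPKM). About 5% of groups are marked in this way by chance.

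The transgene difference of Csad was opposite on the 2 diets: every DKO/hA1 liver was below every DKO liver on Western diet and above every DKO liver on chow. The difference between these differences was -2.38 (log2). It was not tested, because the set was named for the diet difference of Csad.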

How the results depend on the processing

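Directions of the Csad differences held under every alternative for diet in either genotype and for the transgene on either diet. Their sizes did not: for diet in DKO livers, Csad was -0.63 in the main fit and -0.01 with the acute phase index. Diet differences between -0.27 and 0.05 changed sign under some alternatives: Cdo1, Slc6a6, Ahcy and Gamt in DKO livers, and Bhmt and Gamt in DKO/hA1 livers. Mat1a in DKO livers (0.66) was -0.40 with the acute phase index. Scaling to equal totals moved the median of all genes by -0.23 for diet in DKO livers, -0.12 for diet averaged, 0.22 and 0.11 for the transgene on Western diet and averaged, and 0.24 for the difference of the diet effects (log2), and Cdo1 in DKO livers was then -0.23, about that shift.

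Counts of all genes called moved as follows. For diet in DKO livers (13), the count was 3 with the acute phase index, 31 without both libraries highest in neutrophil markers, and 8 to 72 with each library left out. For diet in DKO/hA1 livers (152), it was 85 with the replicate block, 18 with a random block for the code number, 21 with the clock index, 54 without both neutrophil-high libraries, 13 with only the groups compared, and 6 to 189 with a library left out. For diet averaged (456), it was 298 with the replicate block, 39 with the code number block, 288 with the clock index, 39 with the acute phase index, 243 without both neutrophil-high libraries, and 34 to 535 with a library left out. For the transgene on chow (9), it was 3 with 0.1 added, 23 with no level filter, 28 with the code number block, 5 with the clock index, 17 with the acute phase index, 42 without both neutrophil-high libraries, 37 with only the groups compared, and 2 to 33 with a library left out. For the transgene averaged (13), it was 7 with 0.1 added, 22 with no level filter, 8 with no scaling, 6 with the replicate block, 7 with the clock index, 27 with the acute phase index, 8 without both neutrophil-high libraries, and 2 to 13 with a library left out. For the difference of the diet effects (2), it was 7 with no level filter, 1 each with equal totals, the replicate block and the clock index, and 1 to 8 with a library left out. The transgene on Western diet gave 0 under every alternative.

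Pathway genes called for diet in DKO/hA1 livers (1) were 0 with equal totals, either block, the clock index or only the groups compared, and 0 to 1 with a library left out. For diet averaged (1) they were 0 with no level filter, the code number block, with either index or without both neutrophil-high libraries, 2 with no scaling, and 0 to 3 with a library left out. For diet in DKO livers (0) they were 0 to 1 with a library left out. For the transgene on chow (0) they were 1 without both neutrophil-high libraries, 1 with only the groups compared, and 0 to 1 with a library left out. For the transgene averaged (0) there was 1 with the acute phase index. Genes with a slope on the clock index (22) were 5 to 32 and on the acute phase index (383) 23 to 502 with a library left out. The cause of these moves was not tested.

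Same-numbered samples of different groups did not deviate together (r of -0.28 to 0.45, median -0.02, with 4 of 15 pairs above 0.1), so the sample numbers were not taken as pairs, and the replicate block above is given for completeness. Livers of different groups that share a code number had r of 0.44, 0.07 and -0.07. Deviations were taken from group means, so the 2 DKO/hA1 chow livers deviate in exactly opposite ways. Their r values, 0.07 and -0.07 among them, are mirror images by construction and cannot show whether livers are alike. The code number block was added after seeing the data, with an estimated correlation of 0.57 between livers sharing a number. Csad was then -2.47 for diet with the transgene and -1.75 for the difference of the diet effects. Its transgene difference was then 0.66 on chow, against 1.13 without the block, and -1.08 on Western diet, against -1.25. Under the code number block the calls of Psph (limma adjusted p = 0.0911) and Selenbp2 (0.0896) were lost. Under the replicate block they were lost too (0.0559 and 0.0809). Psph was also not called with equal totals (0.0709), the clock index (0.138), the acute phase index (0.0862), without both neutrophil-high libraries (0.074) or with only the groups compared (0.1), and Selenbp2 with no level filter (0.0514), equal totals (0.0563), the clock index (0.101) or without both neutrophil-high libraries (0.138). Groups of 2 to 4 livers and unknown depth limit all comparisons, those of DKO/hA1 chow (n = 2) most.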
